A study of Rattus norvegicus with 12 samples.

Results

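The 10 genes described here are markers of macrophages and other white blood cells (Ptprc, Itgam, Cd14, Tyrobp, Cd74, Cybb, Aif1, Cd68, Gpnmb and Lgals3). They were taken by rat Ensembl gene ID from the 19955 genes of the deposited table. The table itself holds IDs only, and each symbol is the one given with the ID when the genes were listed. The libraries come from hearts of wild-type Sprague Dawley rats: 2 from animals with a sham operation, 4 with myocardial infarction (MI), and 4 with infarction and a cardiac patch stitched to the edge of the infarct (Patch). The labels give no age, no time after surgery, no composition of the patch and no statement on pooling. Nor do they say that the libraries of a group are separate animals, so the p-values measure the spread between libraries.

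After an infarct, circulating monocytes enter the injured muscle and become macrophages, which clear dead cells by phagocytosis and later steer scar formation. The uninjured heart also holds resident macrophages, so these genes are expressed in sham hearts too. In RNA from whole tissue, fewer cells of a type and less RNA per cell cannot be told apart. Several of the 10 genes are also used outside the macrophage, for example Lgals3 in fibroblasts and Cd74 in B cells and dendritic cells. Markers of other cell types, the heart included, were not analysed here, since IDs could not be paired with symbols beyond the 10.

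On average 9 of 10 genes were higher after infarction, and 4 of them passed the test: Gpnmb, Cybb, Cd68 and Itgam, with means 4.75 to 13.7 times those of sham. Of all genes tested, 7.3% rose. The 4 calls needed both sham libraries in the fit, and so did nearly all calls over the whole table. Without sham1 or without sham2, the log2 differences of these 4 genes ran from 1.77 (Itgam) to 3.92 (Gpnmb). Cd74 was level. The Patch means of the same 9 genes lay below the MI means, but no member passed in either comparison with Patch. Of all genes, 13.2% passed in Patch versus MI and 0% in Patch versus sham. One Patch library, P699, had the highest Patch value for each of the 10 genes. It was the highest Patch library for 27.1% of the 11440 genes whose signal averaged 50 or more. P699 lay within the MI range for 9 of the 10 genes. The share of all genes for which it did so was not counted, so this 9 has no comparison. In Patch versus MI, 5 members fell without P699, 4 without the MI library MI2 and 6 with sample weights. Of all genes, 5.84, 13.7 and 15.3% fell in these fits.

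Promoter sequence was at hand for 7 of the 10 genes (all but Lgals3, Aif1 and Tyrobp), from RefSeq on build GRCr8. It covers 250 bases before to 50 bases after the annotated start. The macrophage factor PU.1 binds purine-rich sequences, and its core letters GAGGAA were searched on both strands. They occurred in 7 of these 7 promoters and in 27.6% of the 33469 promoters in the table. The 60-base stretches below lie before the start of the 4 genes that passed the test, and of Ptprc, the general leukocyte marker. Each is written 5′ to 3′ on the strand of its gene, and capitals mark GAGGAA or, where the match is on the other strand, its reverse complement.
Cybb (chrX:16065066-16065125, minus strand): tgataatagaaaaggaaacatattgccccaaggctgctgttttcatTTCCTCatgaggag
Itgam (chr1:192089526-192089585, plus strand): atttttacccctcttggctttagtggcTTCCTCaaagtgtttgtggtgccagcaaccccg
Cd68 (chr10:54882442-54882501, minus strand): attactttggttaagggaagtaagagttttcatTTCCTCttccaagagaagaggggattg
Gpnmb (chr4:79340920-79340979, plus strand): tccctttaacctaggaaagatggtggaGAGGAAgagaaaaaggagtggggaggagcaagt
Ptprc (chr13:52259877-52259936, minus strand): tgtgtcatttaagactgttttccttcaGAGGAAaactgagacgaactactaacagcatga
The match shown begins 14 bases before the start in Cybb, 27 in Cd68, 39 in Itgam, 163 in Ptprc and 181 in Gpnmb. Itgam has another match 151 bases before its start, and Cd68 another after its start. Other letters searched were CCAAT (Y-box), found in 4 of 7 promoters against 37.5% of all, and the E-box CACGTG and TATA box TATAAA. These last 2 occurred in 0 of 7, against 6.42% and 14.2% of all promoters. GAGGAA shares no full match with the other letters. A match is a run of letters and does not show binding.

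Values are the authors' normalized signal, in which 1 read is worth 0.790 to 1.12 units. The 10 libraries held 11420710 to 14110864 reads. The members had 62 to 14478 reads per library, so counting error alone was 0.831 to 12.7% of a value, for counting only since the protocol names no molecular identifiers. MI2 stood apart in the table as a whole: 5474 genes were at 0 there, against 2400 to 3335 in the other 9 libraries. Differences were tested in limma on log2(signal + 1) over 17091 genes with all 3 groups in a single fit, and p-values were adjusted over all genes (Benjamini-Hochberg). Of all genes, 15.4% passed an adjusted p of 0.05 in MI versus sham. In Patch versus MI 13.2% passed, and in Patch versus sham 0%.

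**Figure D1:**
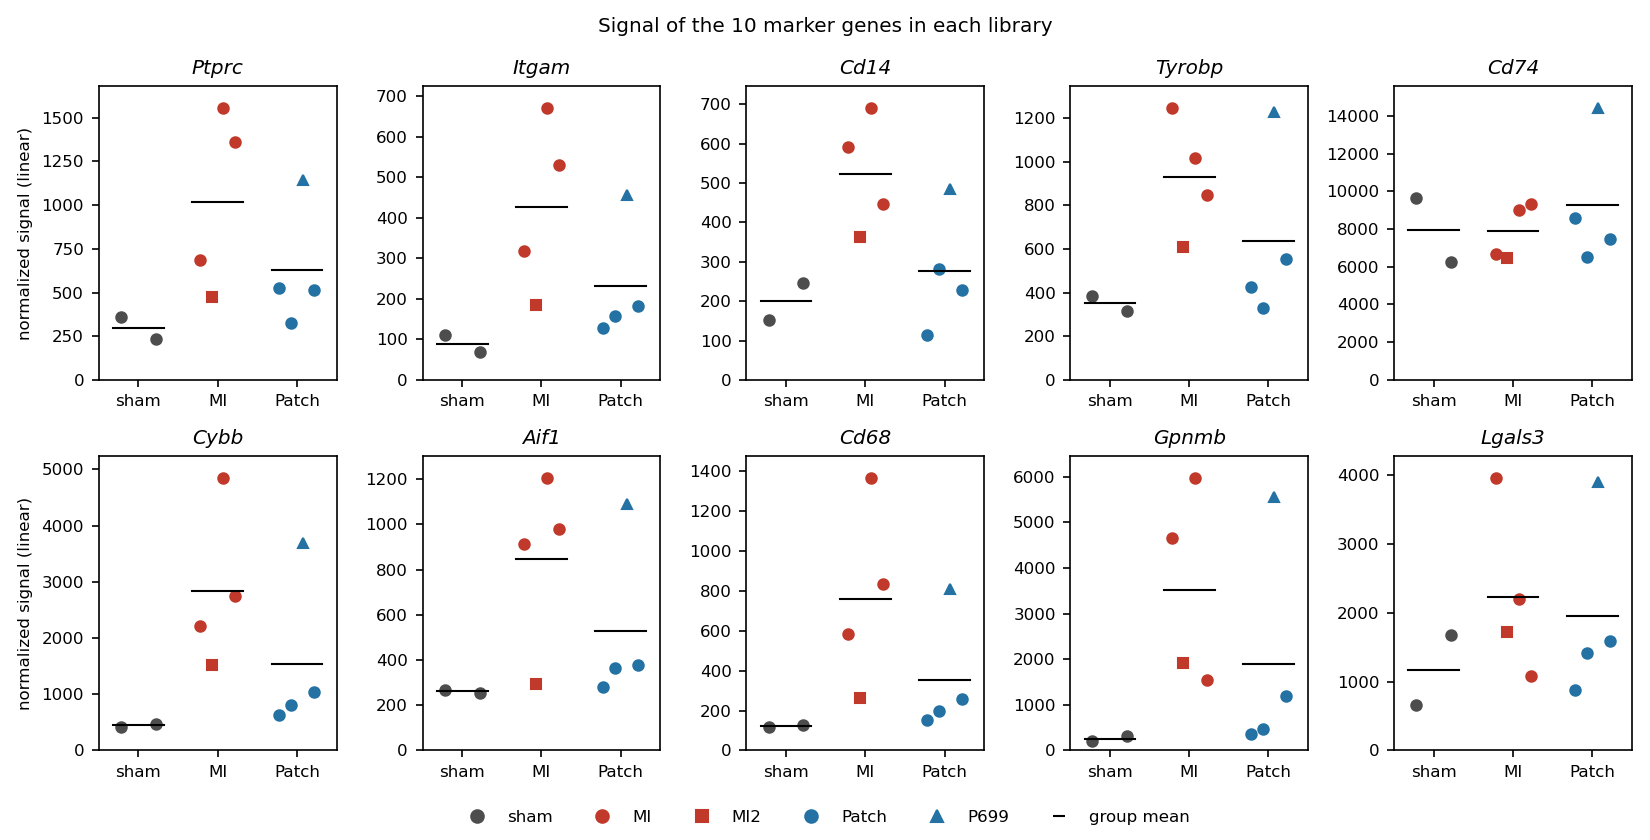
Normalized signal (linear axis from 0) of each marker gene in the sham, MI and Patch libraries; points are libraries, lines are group means, the square is MI2 and the triangle P699. P699 is the highest Patch point in each of the 10 panels, and MI2 is the lowest MI point in 8.

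The surface receptors were considered first. Ptprc (ENSRNOG00000000655) encodes CD45, a phosphatase carried by nearly all nucleated blood cells. Its signal was 359.7 and 233 in sham1 and sham2. In MI it was 689 in MI1, 476 in MI2, 1557 in MI162 and 1359 in MI165, so all 4 lay above both sham libraries. The Patch values were 528 in P695, 325 in P697, 1146 in P699 and 515 in P985. P697 fell within the sham range, and P699 was the sole Patch library above MI1. The MI mean was 1020.15 ± 519 (SD, n = 4) against 296 ± 89.9 in sham (SD, n = 2). The log2 difference of 1.65 (SE 0.52) narrowly missed the threshold in limma (adjusted p 0.0541).

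Itgam (ENSRNOG00000019728) encodes CD11b, the alpha chain of complement receptor 3 on monocytes, macrophages and neutrophils. It was at 111 and 68.4 in sham1 and sham2, and at 318 in MI1, 184 in MI2, 671 in MI162 and 529.95 in MI165. In Patch it was at 127 in P695, 157 in P697, 455 in P699 and 183 in P985. Both comparisons with sham were free of overlap, while P699 lay among the MI libraries and the other 3 Patch values lay under the lowest MI value. Itgam rose in MI by 2.11 (log2, SE 0.56), and its adjusted p in limma was 0.0285. Its 62 reads in sham2 were the lowest read count of the list.

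Cd14 (ENSRNOG00000017819), the co-receptor for bacterial lipopolysaccharide, was at 153 and 247 in sham1 and sham2. The MI values were 591 in MI1, 362 in MI2, 691 in MI162 and 447 in MI165. In Patch it was at 115 in P695, 281 in P697, 484 in P699 and 228 in P985. P695 was thus below both sham libraries, and P699 alone reached into the MI range. The MI-versus-sham difference was 1.38 (SE 0.47, limma adjusted p 0.0674). Cd14 had the smallest adjusted p of the list in Patch versus MI, 0.0889 in limma, at a log2 difference of −1.05 (SE 0.38). With one library left out, that difference ran from −1.38 to −0.69.

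Tyrobp (ENSRNOG00000020845) encodes DAP12, an adaptor that passes on signals from activating receptors of myeloid and natural killer cells. Its signal was 384 and 318 in sham1 and sham2, then 1247 in MI1, 608 in MI2, 1015 in MI162 and 848 in MI165. The Patch libraries had 426 in P695, 332 in P697, 1228 in P699 and 553 in P985. Among the 8 MI and Patch libraries only MI1 exceeded P699. The difference between MI and sham was 1.36 (SE 0.44, limma adjusted p 0.0564).

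Cybb (ENSRNOG00000003622) encodes gp91phox, the catalytic chain of the phagocyte NADPH oxidase, which makes superoxide. It was at 413 and 479 in sham1 and sham2. Infarction brought 2213 in MI1, 1512 in MI2, 4844 in MI162 and 2752 in MI165, all above the higher sham library. In Patch the values were 626 in P695, 809 in P697, 3694 in P699 and 1038 in P985. These were all above sham, and 3 of the 4 lay below the lowest MI library. Cybb had the smallest adjusted p of the list in MI versus sham, namely 0.0215 in limma, for a rise of 2.54 (log2, SE 0.61).

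Cd68 (ENSRNOG00000037563), a heavily glycosylated protein of macrophage lysosomes, followed the same order. It was at 119 and 127 in sham1 and sham2, at 585 in MI1, 262 in MI2, 1366 in MI162 and 834 in MI165. Patch gave 153 in P695, 195 in P697, 810.1 in P699 and 259 in P985. P985 and MI2 nearly met, and P699 lay above 2 of the 4 MI libraries. Cd68 rose in MI by 2.39 (SE 0.67, limma adjusted p 0.0354).

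Gpnmb (ENSRNOG00000008816), a transmembrane glycoprotein of lysosome-rich macrophages, had the widest range. Its signal was 199 and 314 in sham1 and sham2, and 4651 in MI1, 1916 in MI2, 5968 in MI162 and 1552 in MI165. In the Patch group it was 349 in P695, 461 in P697, 5564 in P699 and 1194 in P985, a 15.9-fold span between the lowest and the highest. It rose in MI by 3.59 (log2, SE 0.93), and limma gave an adjusted p of 0.0273. This was rank 121 of 17091 genes by size of rise, and rank 164 with a pseudocount of 0.5 or 64 with a pseudocount of 5. Unlike for most members, the lowest MI library here was MI165.

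Aif1 (ENSRNOG00000000853) encodes Iba1, a calcium-binding protein of the actin cytoskeleton used to stain macrophages and microglia. It was nearly equal in sham1 and sham2, at 269 and 256. MI1 had 911, MI162 1204 and MI165 979, while MI2 had 294, only 1.12 times the sham mean. Patch values were 279.7 in P695, 366 in P697, 1092 in P699 and 379 in P985. The log2 SD of Aif1 within MI was 0.92, below those of Cd68 (1.00) and Gpnmb (0.95), which passed. The smaller difference of Aif1, 1.51 (SE 0.58), did not pass (limma adjusted p 0.1002).

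Lgals3 (ENSRNOG00000010645), the secreted lectin galectin-3, was at 666 in sham1 and 1674 in sham2, a 2.51-fold gap that was the widest between the sham libraries. The MI values were 3951 in MI1, 1713 in MI2, 2196 in MI162 and 1074 in MI165, the last of them between the 2 sham values. The Patch values of 877 in P695, 1421 in P697 and 1582 in P985 also lay between them, and P699 had 3902. Its difference of 0.92 between MI and sham had a 95% confidence interval of −0.40 to 2.24 and did not pass (limma adjusted p 0.330). It was 0.26 without sham1 and 1.58 without sham2.

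Cd74 (ENSRNOG00000018735), the invariant chain that escorts MHC class II molecules, behaved unlike the others. Its signal was 9626 and 6263 in sham1 and sham2, and 6695 in MI1, 6441 in MI2, 9022 in MI162 and 9313 in MI165. All 4 MI values fell inside the sham range. In Patch it was 8589 in P695, 6520.3 in P697, 14426 in P699 and 7477 in P985, so P699 alone exceeded the other 9 libraries. The MI-versus-sham difference was −0.0011 (SE 0.33, limma adjusted p 0.9998), with a 95% confidence interval of −0.72 to 0.72. That interval does not exclude a change of up to about that size in either direction, and the sign of this near-zero value turned under other scalings.

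**Figure D2:**
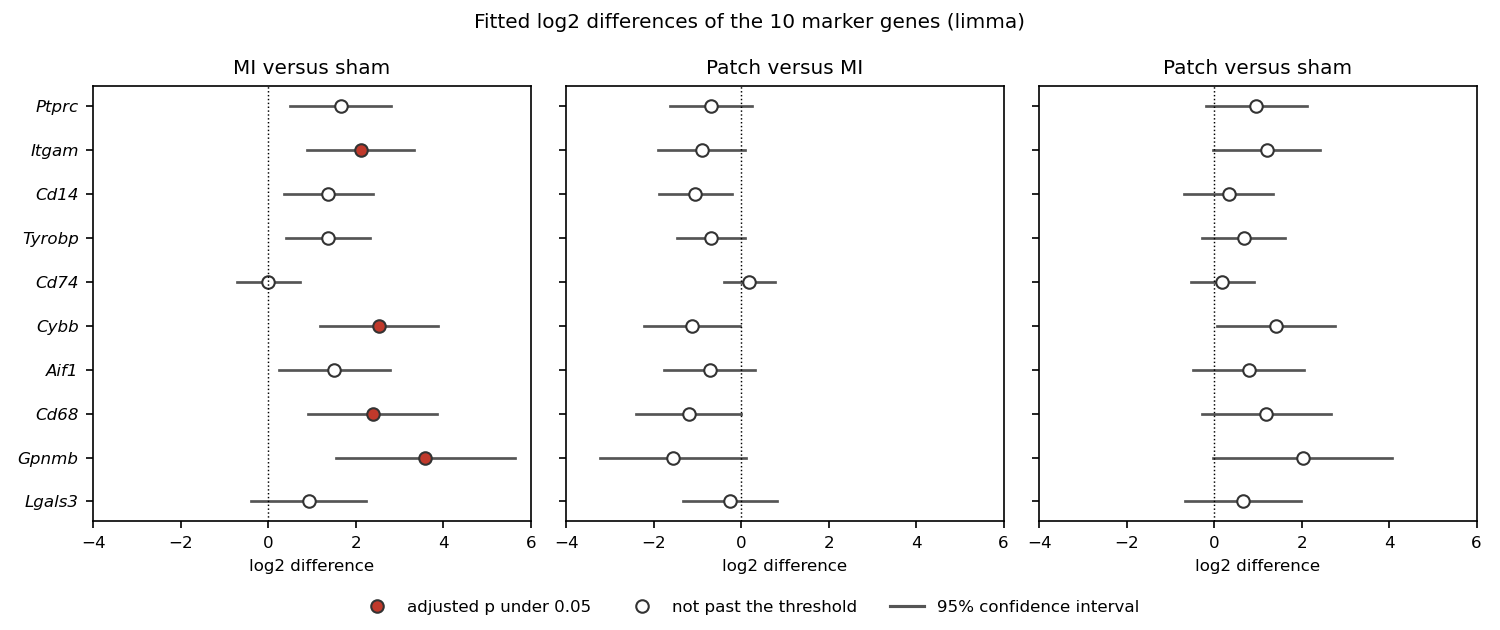
Fitted log2 differences (horizontal axis) with 95% confidence intervals for each gene in the 3 comparisons; filled points passed an adjusted p of 0.05 in limma. The 4 filled points are Itgam, Cybb, Cd68 and Gpnmb in MI versus sham.

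As a list, 4 of 10 members rose in MI versus sham and 0 fell, where 7.3% of all genes tested rose and 8.12% fell. Values of MI and sham did not overlap for 8 of 10 members, with MI higher in each of the 8, and MI was higher without overlap for 17.1% of all genes. The median log2 difference of the 10 genes was 1.58, and that of all genes was 0.01. Before adjustment, 8 of 10 members and 31% of all genes had a limma p under 0.05. With total-read scaling in place of the authors' scaling, the median of all genes moved to 0.24. All 10 members were then positive, Cd74 having turned to 0.24, and 7 passed, where 13.1% of all genes tested rose and 4.72% fell.

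The count for MI versus sham moved with single libraries. Patch libraries enter this comparison only through the estimate of spread, which the 3 groups share. Leaving out a Patch library changed no log2 difference between MI and sham, only that spread and the p-values. Leaving out MI2 gave 8 members, leaving out P699 7, P695 5, P697 4 and P985 3. Leaving out MI1 gave 2, MI165 2, MI162 1, and either sham1 or sham2 0. In the fits short of a sham library the single remaining sham library was assumed to vary like the other groups, and 0.0351% and 0.117% of all genes rose. Cybb kept its call without any one MI or Patch library (limma adjusted p at most 0.0472). Itgam lost it without MI162 (0.0646) or MI165 (0.0562). Gpnmb lost it without MI1 (0.0530) or MI162 (0.0636), and Cd68 without MI1 (0.0552), MI162 (0.0766), MI165 (0.0670) or P985 (0.0546). Without MI2, Ptprc, Tyrobp, Cd14 and Aif1 were also called, when 14.6% of all genes rose, and without P699, when 7.15% did, Ptprc, Tyrobp and Cd14 were. In the fits without one of MI1, MI162, MI165, P695, P697 or P985, 4.07 to 6.52% of all genes rose. With MI and sham fitted alone, 3 members were called (Cybb, Gpnmb and Tyrobp), and 2.56% of all genes rose. Cd68 (limma adjusted p 0.0564) and Itgam (0.0585) then lost their calls.

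**Figure D3:**
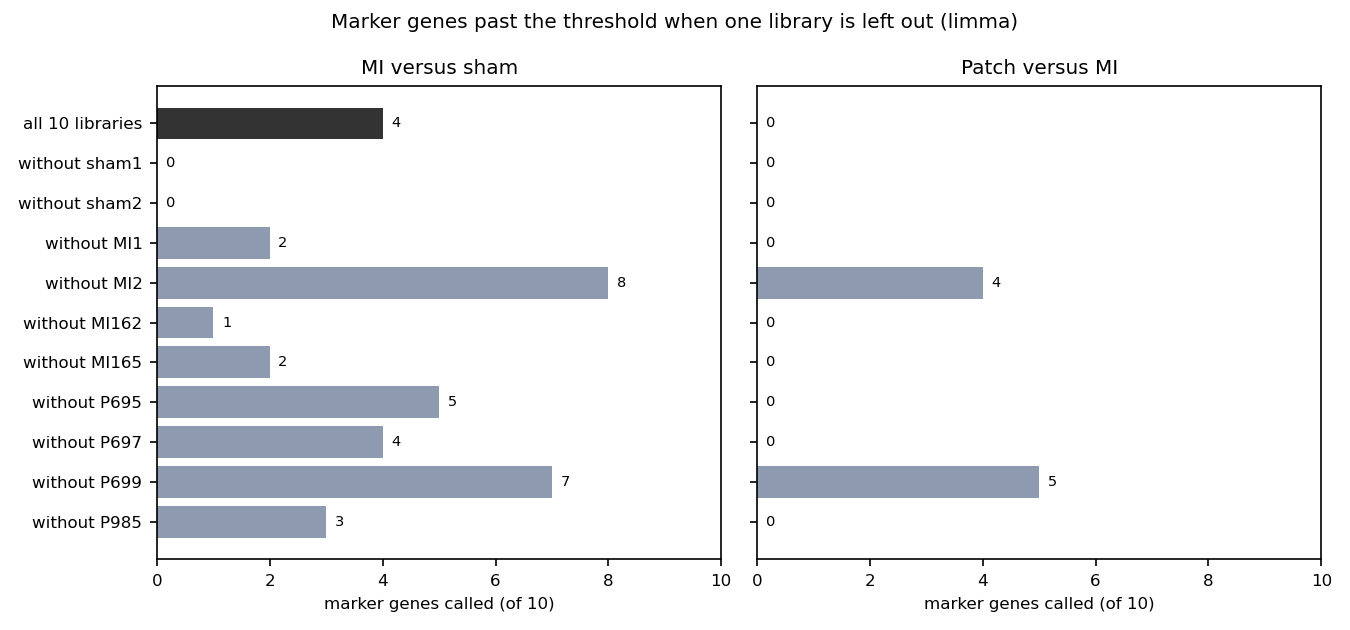
Number of the 10 marker genes past an adjusted p of 0.05 in limma (bars, axis from 0 to 10) with all libraries and with each library left out in turn. In Patch versus MI the count is 0 except without MI2 (4) and without P699 (5).

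Patch was compared with MI to see whether the marker genes differed with the patch. Mean log2 signal was lower in Patch for 9 of 10 members, with differences from −0.26 for Lgals3 to −1.57 for Gpnmb, and Cd74 had 0.18. The value of Gpnmb was −0.89 in edgeR, −0.90 in DESeq2 and −2.38 in limma without P699. No member passed (0 of 10 in limma, 0 in edgeR and 0 in DESeq2; smallest limma adjusted p 0.0889), where 13.2%, 10.5% and 21.7% of all genes passed in these tools. Before adjustment 2 members, Cd14 and Cybb, had a limma p under 0.05, as had 30.6% of all genes. The groups overlapped for each of the 10 members, while Patch was lower without overlap for 7.79% of all genes. The median difference of the members was −0.82, and that of all genes was 0.00.

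The intervals of these differences were wide. For Cd68 the log2 difference of −1.20 had a 95% confidence interval of −2.40 to 0.00, and for Gpnmb it ran from −3.24 to 0.10. For Cybb it ran from −2.23 to −0.03, and for Ptprc (−0.69; −1.03 to −0.43 with one library left out) from −1.63 to 0.25. The count depended on 2 libraries, P699 and MI2. Without P699, 5 members fell in Patch (Cd14, Cd68, Cybb, Gpnmb and Tyrobp, limma adjusted p 0.0187 to 0.0385), where 5.84% of all genes fell. Without MI2, 4 fell (Aif1, Cd14, Cd68 and Itgam, 0.0334 to 0.0465), where 13.7% of all genes fell. Without any other single library the count stayed at 0, where 0.632 to 4.11% of all genes fell. With sample weights, 6 members passed (Aif1, Cd14, Cd68, Cybb, Itgam and Ptprc), all lower in Patch, where 15.3% of all genes fell. Of all genes, 7.72% rose and 5.45% fell with the authors' scaling, against 4.72% and 10.9% with total-read scaling.

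Patch was also compared with sham. All 10 differences were positive, from 0.18 for Cd74 to 2.02 for Gpnmb, with a median of 0.87 against 0.00 for all genes. The Gpnmb value was 1.20 without P699, 2.90 in edgeR and 2.88 in DESeq2. No member passed in limma, edgeR or DESeq2 (limma adjusted p 1.0 for each). Of all genes, none passed in limma or edgeR, and 0.0878% did in DESeq2. One member, Cybb, had an unadjusted p under 0.05 (0.0419), where 3.07% of all genes had one. The Patch and sham values did not overlap for 5 members (Itgam, Cybb, Cd68, Gpnmb and Aif1), with Patch higher in each of the 5. Patch was higher without overlap for 9.18% of all genes. The 3 comparisons share libraries, so their values stand side by side and do not support each other.

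**Figure D4:**
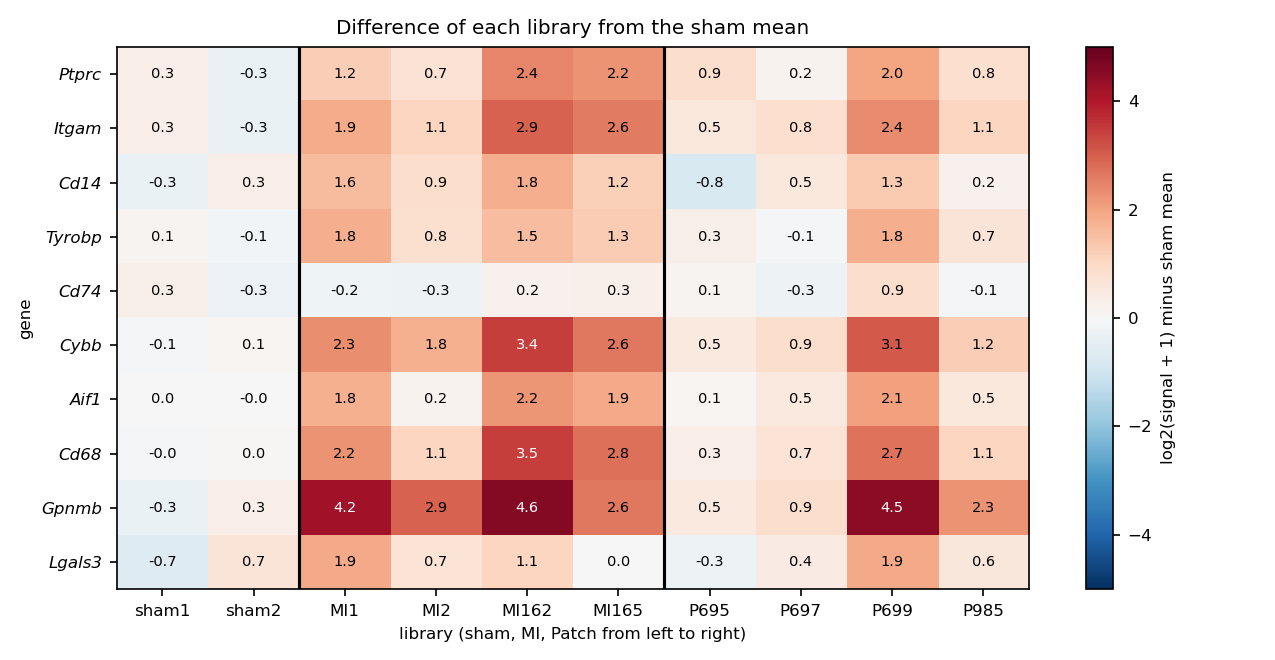
Difference of each library from the sham mean, in log2(signal + 1), for each marker gene (rows) and library (columns), red above and blue below sham. In the P699 column all 10 values lie above 0, and the Cd74 row stays near 0 outside P699.

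Within a library the members differed from the sham mean by unequal amounts, from 0.22 (Cd74) to 4.57 (Gpnmb) in MI162 and from 0.89 (Cd74) to 4.47 (Gpnmb) in P699. The mean log2 difference over the 10 genes was 1.88 in MI1, 0.98 in MI2, 2.37 in MI162 and 1.75 in MI165. In Patch it was 0.22 in P695, 0.45 in P697, 2.25 in P699 and 0.84 in P985. MI2 and P985 were thus neighbours in this order, and P699 stood second among the 10 libraries, after MI162. These are descriptions of the libraries, with no test. The Patch mean was 0.94 ± 0.91 (SD, n = 4) and fell to 0.50 without P699. The MI mean was 1.74 ± 0.57 (SD, n = 4) and 2.00 without MI2.

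P699 was the highest Patch library for 10 of 10 members and for 27.1% of the 11440 genes whose signal averaged 50 or more. Its signal was 1.92 times (Cd74) to 8.33 times (Gpnmb) the mean of the other 3 Patch libraries. The median over the members was 2.97, against 0.973 over the 11440 genes. MI2 was the lowest MI library for 8 members and for 31.9% of those genes. Its median was 0.467 times the other 3 over the members, against 0.980 over the 11440 genes. MI162 was the highest MI library for 7 members and for 24.7% of those genes. Its median was 1.75 over the members, against 0.974. For 9 members MI2 still exceeded both sham libraries. P699 had 2781 genes at 0, against 3007 to 3269 in the other Patch libraries. The part of the low gene detection of MI2 in its low marker values was not tested.

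Spread within groups was wide for the members. Their median SD of log2 signal was 0.80 in MI, against 0.36 over the 11440 genes, and 0.86 against 0.18 in Patch. In sham it was 0.44 against 0.13, from 2 libraries. Within Patch the SD of each of the 10 members lay above the median of all genes, and within MI that of 9, the exception being Cd74. The spread in Patch is not separate from the high values of P699. On linear signal, the Patch SD of each member was smaller without P699. It went from 307 to 53.4 for Cd68 and from 155 to 85.2 for Cd14.

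Levels were also set against Ptprc within each library, which removes the scaling between libraries. The ratio compares libraries for the same gene and not one gene with another, since gene length was not used. Cd74 relative to Ptprc was 26.8 and 26.9 in sham1 and sham2. It was 9.72 in MI1, 13.5 in MI2, 5.80 in MI162 and 6.85 in MI165, and 16.3 in P695, 20.1 in P697, 12.6 in P699 and 14.5 in P985. Each MI and Patch library lay below both sham libraries, and only MI2 and P699 broke the order of MI below Patch. The log2 ratio was lower by 1.66 in MI than in sham. This restates the Ptprc difference of 1.65, since the difference of Cd74 itself was −0.0011. No test was run there; the two-sided exact test used for Patch and MI, which doubles the smaller tail, reaches no p below 0.133 with 4 against 2 libraries.

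Between Patch and MI, 9 ratios were tested, and a lone ratio could not have reached an adjusted p below 0.257, so the adjusted values cannot show a difference in one gene. For Cd74 the log2 ratio was higher in Patch by 0.88 (two-sided exact permutation test, p = 0.0571, adjusted 0.514 over 9 ratios; the smallest p possible is 0.0286). Of this 0.88, the Ptprc difference of −0.69 made up the larger part, and that of Cd74 itself was 0.18. For the rest the exact p-values ran from 0.171 to 1.0. Over the 4 MI libraries Itgam held closest to Ptprc: its log2 ratio had an SD of 0.12 (mean −1.26), against 1.09 for Gpnmb and 1.29 for Lgals3. In Patch the SD of the Itgam ratio was 0.43, above those of Tyrobp (0.20) and Cd74 (0.28). Relative to Ptprc, the means of Gpnmb, Cybb, Cd68 and Itgam were higher in MI than in sham by 1.94, 0.88, 0.74 and 0.47. With one library left out, the value ran from 1.29 to 2.58 for Gpnmb, from 0.46 to 1.302 for Cybb, from 0.38 to 1.10 for Cd68 and from 0.42 to 0.50 for Itgam. Those of Lgals3, Tyrobp, Cd14 and Aif1 were lower by 0.74 at most with all libraries. Without sham2, 3 of these turned, to 0.24 for Lgals3, 0.38 for Cd14 and 0.14 for Aif1, and without sham1 they were −1.72, −0.93 and −0.42. MI and sham ratios were free of overlap for 3 of the 9 genes, Cd68, Itgam and Cd74, and for 61.7% of all genes set against Ptprc in the same way.

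**Figure D5:**
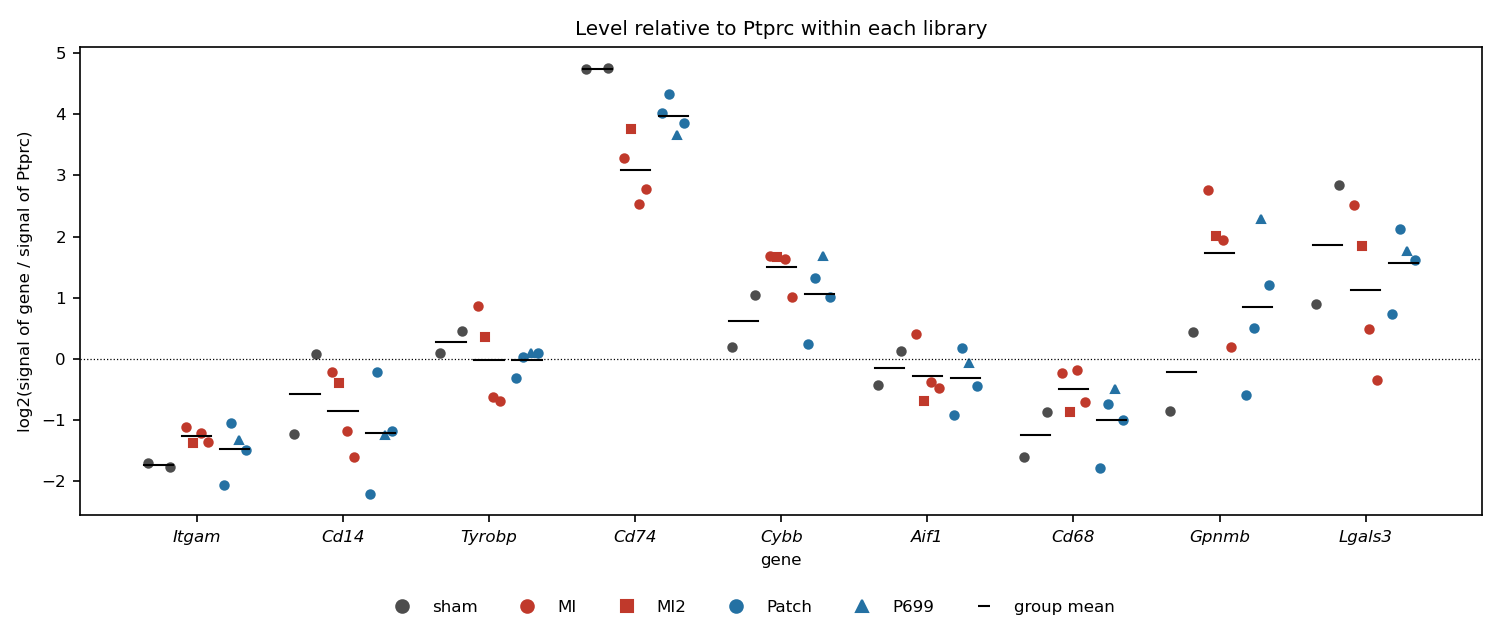
Level of each gene relative to Ptprc within a library (log2 ratio, vertical axis), by group; points are libraries, lines are group means, the square is MI2 and the triangle P699. Cd74 is the gene whose 2 sham points lie above all 8 other points; between MI and sham its ratio moves with Ptprc, the denominator.

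Genes of the table with profiles closest to the members were sought over the 10 libraries. Likeness was the mean absolute gap, in log2 units, between a gene's differences from its sham mean and the mean profile of the 10 members. Among members, Aif1 lay closest to that mean profile (0.203), and Cd74 (1.07) and Gpnmb (1.23) lay farthest. Of 11430 other genes above that same average signal of 50, the closest were ENSRNOG00000050697 (0.140) and ENSRNOG00000003104 (0.152). The former was at 343 and 336 in sham, 844 to 2036 in MI, 1628 in P699 and 340.3 to 671 in the other Patch libraries. The symbols of these genes are not paired with their IDs in the files.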

How the data were processed

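Poly(A) RNA of whole heart was sequenced. The authors deposited a normalized signal per gene and library. The submitters' processing notes name HISAT2, SAMtools, featureCounts, DESeq2 and build rn6, without roles; annotation and strand setting are not given in the sources used here, so reads of overlapping genes cannot be told apart. Of 12 labelled samples, 10 columns matched a group by name. Another 2 columns matched no label and were not used here, which leaves 2 sham libraries. The labels list sham rep1 to sham rep4. The 2 unused columns equal in number the sham labels left without a column, but no name ties them to any of these labels.

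Each deposited signal was a whole multiple of a step per library (100% of values whole within 0.01), and whole reads were recovered for the count-based alternatives. The test used limma 3.58.1 (R 4.3.3) on genes whose signal averaged 1 or more (pseudocount 1, mean-variance trend, Benjamini-Hochberg over 17091 genes, threshold 0.05), after a check on simulated counts. Alternatives were pseudocount, filter, scaling (TMM, total reads), sample weights, the 2 groups alone, each library left out, edgeR 4.0.16 and DESeq2 1.42.0 on recovered reads. Python 3.11.15 with numpy 2.4.6, pandas 2.3.3, scipy 1.17.1 and matplotlib 3.10.9 gave descriptions and figures.

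The members, gene lists, motifs and tests were chosen with earlier results of these data known; the ratios to Ptprc were chosen after seeing the data. By the naming rule, all 10 members and the 2 genes closest in profile are named. Another 13 marker lists (other myeloid cells, lymphocytes and the main cell types of the heart) could not be used: 0 table IDs matched the gene table.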

Additional observations from a re-analysis of the deposited data

Results flagged for a closer look

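In groups of 4 libraries, a library was marked where its gap to the nearest other, as a share of the group's range, exceeded Dixon's 95% critical value. Of 22 sets tested (10 genes and their mean profile, in MI and in Patch), 4 were marked, where chance gives about 1 in 20, or 1.1. All 4 concern P699, so they are not independent. They were marked on linear signal, whereas the group differences were tested on log2(signal + 1). On that log2 scale none of these 4 gaps exceeded the critical value, so the excess over 1.1 depends on the scale. The largest share there was that of Aif1, at 2.05 above the sham mean in P699, 0.53 in P985 and 0.093 in P695.

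P699 had 810.075 for Cd68, where the next Patch library had 259. For Gpnmb it had 5563.91, where the next had 1194. Aif1 stood at 1092.06 there and at 379 in the next library. Cybb stood at 3693.66 and 1038.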

How the results depend on the processing

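Columns sham1, sham2, MI1 and MI2 end in a number, but nothing ties it to the labels' numbers, and the other 6 columns carry none that match. Deviations of same-numbered libraries correlated at −0.025 (number 1) and 0.049 (number 2), so the numbers were not taken as pairs. In limma on these 4 libraries alone, chosen after seeing the data, 0 members passed in MI versus sham (0.012% of all genes rose; at an unadjusted p under 0.05 there were 7 members and 17.3% of all genes), and 2 with the number as a replicate block (Cybb and Gpnmb; 1.49%). No paired analysis of the comparisons with Patch was possible because its columns carry no such number. In MI versus sham the 4 members called became 7 with total-read scaling, 2 in edgeR (Cybb and Itgam), 8 in DESeq2, 8 with sample weights and 3 with the 2 groups alone (Cybb, Gpnmb and Tyrobp), where 13.1, 6.68, 11.97, 16.4 and 2.56% of all genes rose; with one library left out the count was 0 to 8. In Patch versus MI the 0 members became 6 with sample weights, which gave MI2 the lowest weight (0.193) and called 15.3% of all genes lower, and 0 to 5 with one library left out; the cause was not tested. In Patch versus sham no member was called in any alternative that kept both sham libraries. Of all genes, 0.0878% passed there in DESeq2, 0.0585% with sample weights, 0.0117% without P695 and none in the rest. The pseudocount, filter and TMM alternatives gave the same 4 members in MI versus sham, where 5.67 to 9.78% of all genes rose.

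No called log2 difference changed sign in the alternatives run, and those that did were not called. Cd74 in MI versus sham was 0.012 with TMM, 0.24 with total reads, 0.13 with sample weights and −0.31 to 0.31 with one library left out. In Patch versus MI, Cd74 was −0.042 with sample weights and −0.052 to 0.33 with one library left out, and Lgals3 was −0.67 to 0.065. In Patch versus sham, leaving out one library gave −0.0070 to 1.32 for Lgals3 (0.66 with all libraries), −0.015 to 0.69 for Cd14 (0.33) and −0.13 to 0.49 for Cd74. Only 2 sham libraries entered both comparisons with sham, and the lowest member count in any library was 62 reads.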

Other observations

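The MI libraries did not rank alike for every member. Lgals3 was highest in MI1 (3951) and lowest in MI165 (1074), while Ptprc was at 689 and 1359 in the same libraries. Lgals3 relative to Ptprc was therefore 5.74 in MI1 and 0.790 in MI165, and Gpnmb relative to Ptprc was 6.75 and 1.14. Tyrobp relative to Ptprc was 1.81 and 0.624. All 9 ratios were higher in MI1 than in MI165, and they share Ptprc as denominator. In P699 these ratios were 3.41 for Lgals3, 4.86 for Gpnmb and 1.07 for Tyrobp, between those of MI1 and MI165. With single libraries, these differences have no replicate check.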
